A study of Mus musculus and Mus musculus
Oryx dammah with 30 samples.

Results

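A set of 534 *Oryx dammah* genes was examined whose normalized counts were higher in every library with RNA polymerase II blocked than in any library with it active. They were chosen by the values described here, from the 28559 genes of the oryx table, by a rule with 2 parts. The mean normalized count over the 3 libraries with α-amanitin had to be at least 50, and the lowest of these libraries had to be above the highest of the 3 libraries without it. A mean of at least 50 with α-amanitin was reached by 1392 genes, and 38.4% of these met the second part. The libraries of the groups overlapped for 676 of the others, and all libraries with α-amanitin were below all without it for 182. In the other direction, 1569 genes had a mean of at least 50 without α-amanitin, and 36.3% of these, 570 genes called the opposite set, had all 3 libraries without α-amanitin above those with it. Each of these shares is of genes picked by their level in the group where the counted genes are higher, which favours that order. Because the rule used this contrast, the values of the set are given as a description without a test.

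The libraries came from mouse four-cell embryos, hybrids of the strains C57BL/6 and DBA/2, that were arrested with 0.1 μg/ml demecolcine and received primary *Oryx dammah* cells by nuclear transfer (NT). Each library was made from a pool of 5 embryos. The donor cells were grown from muscle of 1 dead animal, and each embryo kept its own mouse nuclei beside the transferred ones. The α-amanitin (+) group of 3 pools was cultured in demecolcine with α-amanitin, and the α-amanitin (−) group of 3 pools in demecolcine alone. Reads were mapped to the mouse genome first, and the values used here are those of reads that did not map there and were then assigned to oryx genes. In all, 338127 to 534401 oryx reads per library were counted without α-amanitin and 276921 to 484943 with it. At least 1 read was found for 10298 to 11041 genes without and 6838 to 8686 genes with α-amanitin. The third α-amanitin (+) library had the fewest reads and genes, and the first α-amanitin (−) library had the most of both.

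α-Amanitin, a toxin of mushrooms, stops RNA polymerase II, the enzyme that makes mRNA, but spares transcription by RNA polymerase I and by the polymerase of mitochondria. In a treated cell the mRNA present beforehand is no longer replaced, and transcripts with a long life come to make up more of what is left. A cell fused with an embryo also brings its cytoplasm, and with it mRNA made before the transfer. In the intended reading of such an experiment, transcripts that are higher without α-amanitin are the newly made ones, and the set described here lies on the opposite side. The tables used here pair the oryx identifiers with no gene names, so neither the roles of these genes nor markers of the donor cells are given, and only a few identifiers are printed.

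The set took up 23.3%, 19.0% and 19.9% of the oryx reads in the α-amanitin (−) libraries 1, 2 and 3. In the α-amanitin (+) libraries it took up 41.1%, 43.5% and 47.2%. The mean share was 20.7% ± 2.28 (SD, n = 3) in untreated libraries. In treated ones it was 43.9% ± 3.07 (SD, n = 3), and the shares of the groups did not overlap, as the choice of the genes made them do. Exact binomial 95% intervals treat each read as independent and cover counting error at most. They were narrow, from 23.2% to 23.4% in the first α-amanitin (−) library and from 47.0% to 47.4% in the third α-amanitin (+) library. The library with the highest share was the deepest of its group without α-amanitin and the shallowest of its group with it. These shares are parts of a whole: in the same libraries, the opposite set went from 22.4%, 25.3% and 25.1% to 10.1%, 8.68% and 7.47%. All other oryx genes together held 54.3% to 55.7% without and 45.3% to 48.8% with α-amanitin. In pooled embryos fewer donor cells and less RNA per cell cannot be told apart, and the values used here give no amount of oryx RNA per embryo.

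**Figure D1:**
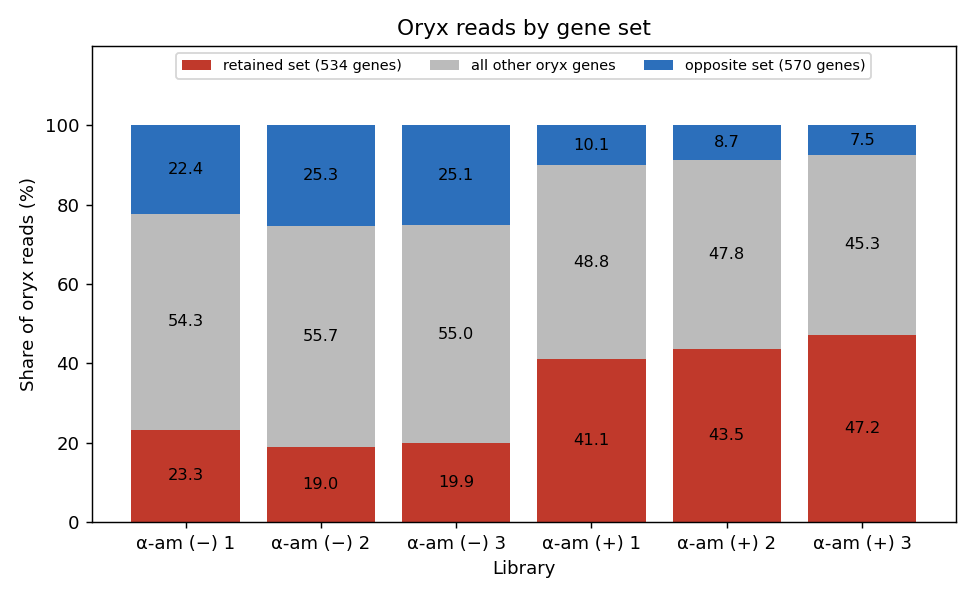
Share of the oryx reads of each library (y axis, percent) that fell on the set of 534 genes retained under α-amanitin (red), on all other oryx genes (grey) and on the opposite set of 570 genes (blue), with 1 bar per library, 3 α-amanitin (−) on the left and 3 α-amanitin (+) on the right. The red part lies between 19.0% and 23.3% without and between 41.1% and 47.2% with α-amanitin, and both sets were chosen by this difference.

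The rule asks for high values with α-amanitin, so the set holds many of the oryx genes that were abundant in treated embryos. Of the 10 most abundant genes with α-amanitin 7 were in it, of the 20 most abundant 17 were, of the 100 most abundant 69 were, and of the 500 most abundant 238 were. Without α-amanitin the set still supplied 10 of the 20 and 35 of the 100 most abundant genes. The share of genes that met the rule differed with the level: it was 31.9% of the 623 genes with a mean from 50 to 100 with α-amanitin, 46.3% of the 270 genes from 200 to 500, and 70.4% of the 27 genes at 1000 or more. The levels are the treated means that the rule used, which favours genes that are higher with α-amanitin. Counting error is relatively larger for genes of low level, so these shares do not compare genes of unlike level on equal terms.

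Read numbers were concentrated on few genes. The 10 most abundant genes of the set held 29.1% to 30.3% of its reads with and 19.9% to 24.8% without α-amanitin, and the 100 most abundant held 65.1% to 67.5% and 61.6% to 64.3%. The most abundant gene, Oryx_dammah_006469, had 13851, 15347 and 18186 normalized counts in the α-amanitin (+) libraries and 8291, 4317 and 5174 in the α-amanitin (−) libraries. The lowest treated library was thus above the highest untreated one, and the means differed 2.66-fold, a value of 2.35 to 3.33 with any 1 library left out. This gene alone held 3.59% to 4.39% of all oryx reads with α-amanitin, and it ranked second among all oryx genes without it.

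The second most abundant gene of the set had 12501, 13599 and 11749 normalized counts with α-amanitin and 2017, 203 and 582 without it. The treated libraries were close together, while the first untreated library was far above the other two, and the fold of 13.5 rested on it: it was 32.1 without that library and 9.71 to 14.0 without any other. Together the 2 leading genes held 6.84%, 7.25% and 7.23% of all oryx reads with α-amanitin and 2.79%, 1.26% and 1.57% without it. The third gene had 4525, 4202 and 5016 normalized counts with and 1190, 1300 and 1194 without α-amanitin, with small spread in both groups and a fold of 3.73.

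**Figure D2:**
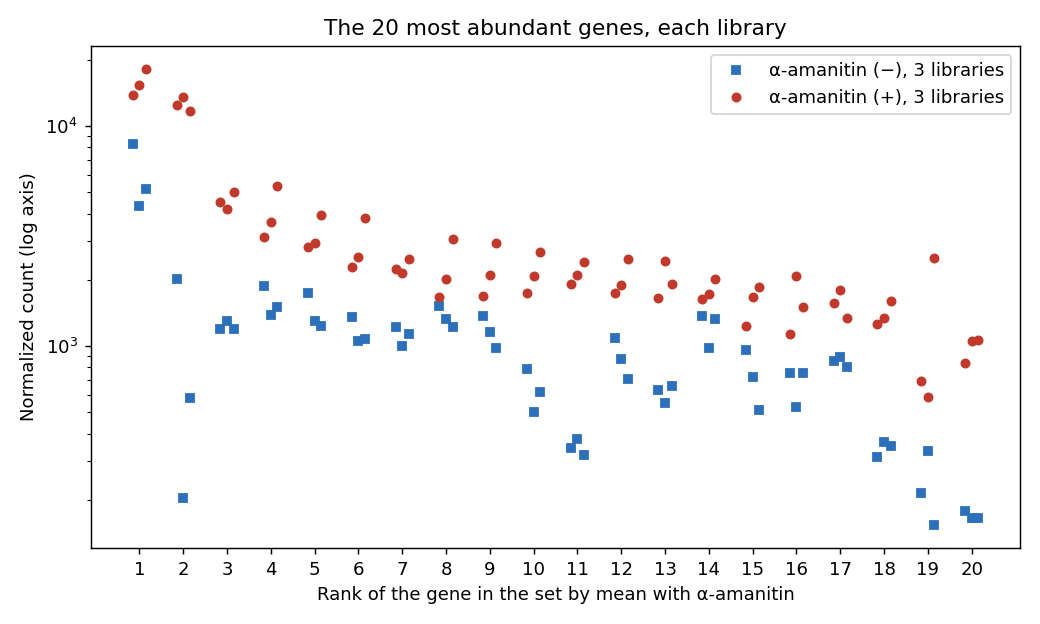
Normalized counts (y axis, log scale) in each library of the 20 genes of the set with the highest mean with α-amanitin, in rank order on the x axis, with red circles for the 3 α-amanitin (+) libraries and blue squares for the 3 α-amanitin (−) libraries. By the rule every red circle is above every blue square of its gene, and the second gene has untreated values spread from 203 to 2017.

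On the log2 scale, the widest gap between the lowest treated and the highest untreated library was that of Oryx_dammah_004696. This gene had 98.6, 99.8 and 97.2 normalized counts with α-amanitin, from 65 to 124 reads, and 9.69, 10.02 and 10.9 without it, from 10 to 14 reads. The 3 values of each group were nearly equal, and the means differed 9.67-fold. The largest ratio of means in the set was 18.7, for a gene with 125, 138 and 25.4 normalized counts with and 0, 4.56 and 10.9 without α-amanitin. Its ratio rested on few reads and moved between 12.5 and 42.2 as single libraries were left out.

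Over the whole set the ratio of means was modest. Its median was 2.27, with quartiles of 1.69 and 3.11 and a range from 1.07 to 18.7. For 222 genes, or 41.6% of the set, it was under 2, for 228 it was from 2 to under 4, for 71 from 4 to under 8 and for 13 it was 8 or more. The median ratio was 2.54 for the 199 members with a mean from 50 to 100 with α-amanitin, 1.78 for the 51 from 500 to 1000 and 2.48 for the 19 at 1000 or more, so it did not follow the level in 1 direction. On the log2 scale the median was 1.18 for the set, against 0.42 for all 1392 genes over the mean and −0.01 for the 858 of these that were not in the set. The edgeR quasi-likelihood fit over 4582 genes, in which libraries are scaled by TMM, placed all 534 above 0, with a median log2 change of 1.29. The median log2 change of all genes tested was −0.10 in that fit, where TMM sets the centre. Over the same 4582 genes it was −0.30 by limma on the authors' scaling, which the ratios of means above also use. It was −0.64 in edgeR with no filter on low counts and −0.70 in DESeq2.

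**Figure D3:**
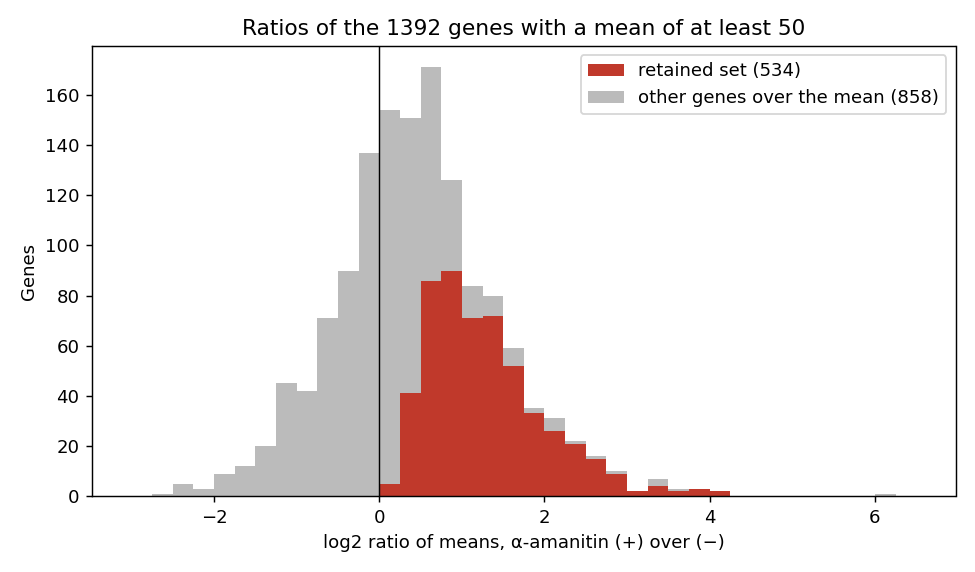
Number of genes (y axis) by the log2 ratio of mean normalized counts with over without α-amanitin (x axis) for the 1392 oryx genes with a mean of at least 50 with α-amanitin, with the 534 genes of the set in red and the other 858 in grey, stacked. The red bars start just above 0, since the rule admits no gene with a lower ratio, and have a median of 1.18.

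Nearly every gene of the set also had reads assigned to it in the untreated libraries. All 3 α-amanitin (−) libraries had at least 1 read for 528 of the 534 genes, and at least 10 reads for 490. The remaining 6 genes had 0 reads in 1 of these libraries, and none had 0 in more. The mean without α-amanitin was at least 50 for 295 genes and under 50 for 239, with a median of 62.1 normalized counts. None of the 1392 genes over the mean with α-amanitin was without reads in the untreated group. In the opposite set, 493 of 570 genes had reads in all 3 treated libraries and 9 had none in any of them. The median fold of the 561 with a read was 2.88.

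**Figure D4:**
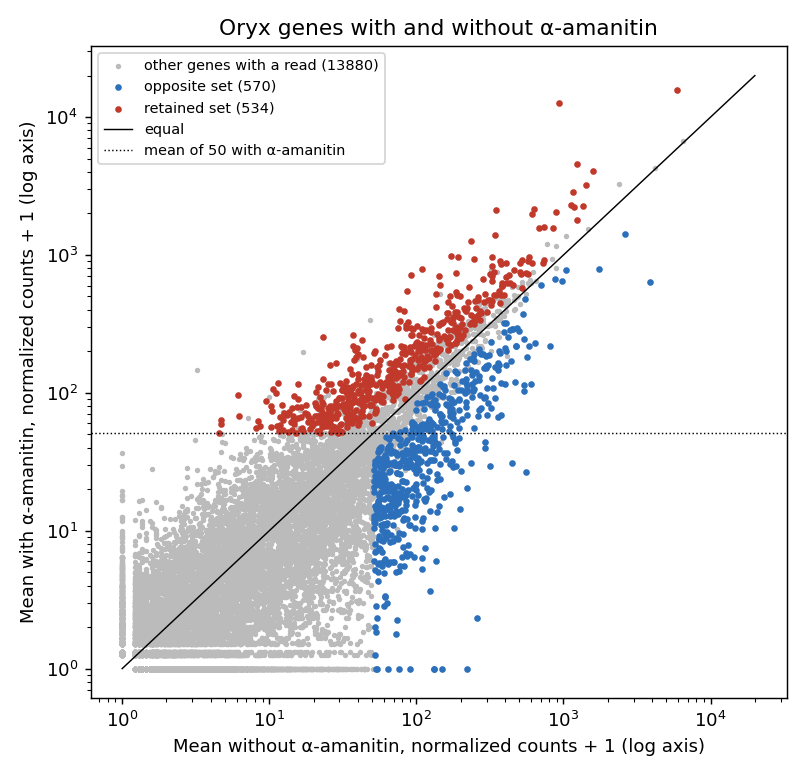
Mean normalized counts plus 1 of each oryx gene with reads, without α-amanitin (x axis, log scale) and with it (y axis, log scale), with the set of 534 genes in red, the opposite set of 570 in blue and the other genes in grey. The solid line marks equal means and the dotted line a mean of 50 with α-amanitin, and the red points span means from 3.56 to 5927 without α-amanitin.

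Within the groups the genes varied by moderate amounts. The highest treated library had a median of 1.41 times the value of the lowest, and 22 genes of the set were more than 3 times apart. For the untreated libraries the median was 1.503 and 39 genes were more than 3 times apart. A small spread was favoured by the rule, and for the 858 other genes over the mean the treated libraries had a median of 1.65, with 89 genes more than 3 times apart. The third α-amanitin (+) library held the highest treated value for 295 genes, the second for 135 and the first for 104. The first α-amanitin (−) library held the highest untreated value for 273 genes. The ratio of means moved by more than 1.5 times for 39 of the 534 genes when a library was left out, and for 16 of them the first α-amanitin (−) library was such a library.

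Many genes met the rule narrowly. The lowest treated value was a median of 1.42 times the highest untreated value, under 1.1 times for 82 genes and at least 2 times for 104. Just inside the threshold on the mean were genes at 50.17, 50.39 and 50.45, and just outside it were genes without overlap at 49.997, 49.97 and 49.91. At least 1 read was found for 14984 oryx genes, the 1392 over the mean among them. Of those with a mean under 50, 555 had no overlap in this direction, and 237 of these had a mean of at least 20. Nothing is read from this count. On the other side of the rule, the smallest gaps between the lowest treated and highest untreated value were 0.065, 0.088 and 0.179 normalized counts inside and −0.027, −0.039 and −0.058 outside. Of the 676 overlapping genes, 254 were kept out by a single treated library, which was the first for 94, the second for 86 and the third for 74. At least 4-fold higher in the mean but overlapping were 13 genes, each of which had 1 treated library at or below the highest untreated one.

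The rule was also applied with each library left out in turn, and the order was examined in that library. With 5 libraries, 578 to 655 genes met the rule. The library left out kept the order, above every untreated or below every treated library, for 82.4% to 85.4% of these genes when it was a treated library and for 83.8% to 92.4% when it was an untreated one. For an untreated library the outcome was fixed, since the mean in the rule uses treated libraries only. The genes that kept the order were then the same 534 each time, out of 637, 582 and 578 picked. That share restates the size of the set. For a treated library 531 to 540 genes kept the order. Over all genes with the same mean, picked or not, 48.1% to 54.9% showed the order in the left-out library. Of those that the 5 libraries had not picked, 17.9% to 29.0% did. The genes picked had been chosen for high values in one group or low values in the other, and the left-out library was held against those same values, so the shares are a description.

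How many genes were in the set depended on how libraries were scaled. The authors' size factors made the total of normalized counts 358955 to 369833 in untreated and 385533 to 413982 in treated libraries, a mean of 1.09 times as high. Scaled to equal totals, 456 genes met the rule, all of them in the set of 534. TMM scaling added 113 genes and lost none. Without any scaling, where depth sets the values, 226 genes met it, of which 217 were in the set. A mean of at least 100 left 335 genes and a mean of at least 20 gave 771. A gene that does not overlap in 6 libraries cannot overlap in 5, so leaving out a library could only add genes, or remove some through the threshold on the mean, as it did for 14 to 17 of the 534 when a treated library was left out.

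**Figure D5:**
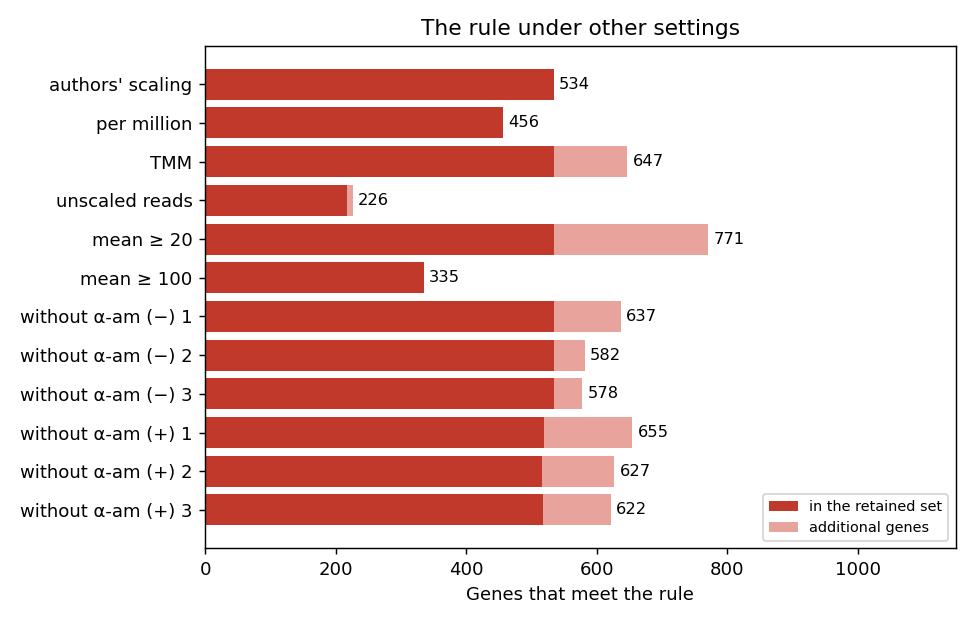
Number of oryx genes that met the rule (x axis) under the authors' scaling with all 6 libraries, under 3 other scalings, under lower and higher thresholds on the mean, and with each library left out (y axis), with genes of the set of 534 in dark red and additional genes in light red. The totals run from 226 for unscaled reads to 771 for a mean of at least 20.

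In the edgeR quasi-likelihood test with Benjamini-Hochberg adjustment over 4582 genes, 469 genes had an adjusted p under 0.05 and were higher with α-amanitin, which is 10.2% of those tested. All 534 genes of the set passed the filter on low counts, through values on which they were chosen, and 376 of them were among the 469. With a change of at least 4-fold as well, 151 genes were called, or 3.30% of those tested, and 92 were in the set. The rule used this contrast, so nothing is read from these counts. They depended on the libraries. Without the first α-amanitin (−) library 278 genes of the set were called, where 6.24% of all 5129 genes tested were called higher with α-amanitin. Without the second library of that group 156 genes of the set were called, where 3.39% of 5051 were, and without the third 173, where 3.66% of 5109 were. With the 4-fold criterion, 67 genes, or 1.33% of those tested, were called without the second α-amanitin (−) library, 54 of them in the set. Without the third it was 81 genes, or 1.59%, with 67 in the set. Of the 93 called genes outside the set, 81 had a mean under 50 and 12 had libraries that overlapped.

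The make-up of the set differed less between libraries of 1 group than between the groups. If the reads on the 534 genes are set to 100% in each library, any pair of treated libraries had 89.6% to 92.4% in common, taking the smaller share of each gene, and any pair of untreated libraries 87.6% to 89.8%. Between the groups 76.6% to 83.1% was in common. Pearson's r of log2 normalized counts plus 1, over the 534 genes, was 0.92 to 0.93 within the treated, 0.91 to 0.92 within the untreated and 0.81 to 0.88 between the groups. Genes are not independent replicates, the libraries differ in depth, and the genes were chosen by the difference between the groups, so these are descriptions.

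Identifiers in the table are numbered without gaps, and whether the numbers follow the genome is not stated. The set held 29 pairs of genes with adjacent numbers, and 10.9% of its genes had such a neighbour in it, with no run longer than 2. In the opposite set the share was 11.6%, among the 858 other genes over the mean 14.9%, and among all 1392 genes over the mean 21.0%. Neighbours are met more often in a larger list, so shares of lists of unlike size are not on equal terms.

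Whether the reads of these genes came from RNA that the donor cells brought with them, from transcripts made by other polymerases, or from mouse RNA that failed to map to the mouse genome was not tested. The RNA of the donor cells and the mouse reads of these libraries were not analysed here.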

How the data were processed

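RNA-seq of 6 pools of NT embryos was analysed, and groups were taken from the labels. The authors filtered reads with Trimmomatic, trimmed them with Trim Galore and Cutadapt, mapped them to mm10 with STAR, mapped the rest to the *Oryx dammah* genome and counted reads per gene with STAR. The signal the authors deposited is the count divided by a DESeq2 size factor per library. Their columns of log2 changes, standard errors, Wald statistics and p-values were not used, nor were the 3 mouse tables. Whole reads were recovered for 100% of values, within 0.01 of a read. These were tested with edgeR 4.0.16 (quasi-likelihood, TMM, filterByExpr) in R 4.3.3, which called 1096 genes. DESeq2 1.42.0 and limma 3.58.1 were alternatives. The procedure was tested on simulated data. Members and settings were chosen with earlier results of these data known. Named were the most abundant gene and the one with the largest log2 gap between the groups. Intervals treat each read as independent. PCR duplicates were kept, so the intervals can understate even the counting error. Pools were independent biological replicates per a figure legend of the study. One alternative used the numbers in the column names as a block.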

Additional observations from a re-analysis of the deposited data

How the results depend on the processing

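The number of genes meeting the rule was 226 with unscaled reads and 335 with a mean of at least 100, against 534, and it was within 1.5 times of that in 9 other alternatives, with 578 to 655 when a library was left out. The mean share of reads was 40.0% with α-amanitin when the most abundant gene was removed. With genes chosen without 1 library it was 45.8% to 49.5% with and 22.2% to 24.9% without α-amanitin. By edgeR, 469 genes were higher and 627 lower with α-amanitin, of 4582 tested. When a library was left out, 171 to 456 were higher and 247 to 767 lower, of 5051 to 5304 tested. Of the set, 156 to 328 genes were then called. The lowest counts came without the second α-amanitin (−) library, and the cause was not tested. With no filter 995 of 14984 genes tested were lower. With a 4-fold criterion 151 genes, or 3.30% of the 4582 tested, were higher, 92 of them in the set. With the numbers in the column names as a replicate block, 257 of 4582 genes tested were higher and 354 lower. Of the set, 238 genes were called in that fit. With the 4-fold criterion as well, 95 of these 4582 genes were higher, 79 of them in the set. Whether libraries of the 2 groups with equal numbers were handled together is not given by the labels. Their deviations correlated at −0.05 to −0.03 for equal numbers and at 0.01 to 0.03 for unequal ones. No library correlated best with its own number, but 3 libraries per group cannot settle a pairing. Depth limits the weakest members, which had as few as 13 reads in a treated library.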
